A study of Mus musculus with 87 samples.

Results

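In mouse embryonic stem cells, 78 of 55450 counted Ensembl gene IDs were close to silent in wild type (WT) cells and gained transcripts both when the Polycomb core gene Suz12 was knocked out and when 6 genes for non-core Polycomb subunits were knocked out together. They were chosen by their own levels. Each library's counts were expressed as counts per 1e+06 counts of its total (CPM), and these were averaged over 3 libraries per genotype. An ID was taken when its mean was under 0.5 CPM in WT, 2 CPM or more in Suz12 KO (knockout) and 1 CPM or more in the Pcl1-3 + Jarid2 + Aebp2 + Epop KO, called the 6-gene knockout here. Levels in these 3 genotypes are therefore a description and carry no test. The remaining 5 knockouts were not used for the choice.

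Polycomb repressive complex 2 (PRC2) methylates lysine 27 of histone H3 and helps to keep developmental regulator genes silent in embryonic stem cells. SUZ12 is a core subunit that the enzyme needs for its stability and on which non-core subunits assemble. One form of the complex carries a Polycomb-like protein (PCL1, PCL2 or PCL3), with or without EPOP, and another form carries JARID2 and AEBP2. Non-core subunits take part in guiding the complex to its target sites.

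The RNA data are 24 libraries, with 3 from each of 8 genotypes. Beside WT, Suz12 KO and the 6-gene knockout, these are Jarid2 + Aebp2 KO, which keeps the 3 Polycomb-like genes, and 4 knockouts that lack these genes. Of the 4, Pcl1-3 KO lacks nothing else, Pcl1-3 + Epop KO also lacks Epop, Pcl1-3 + Jarid2 KO also lacks Jarid2, and Pcl1-3 + Jarid2 + Aebp2 KO also lacks the last 2 of its name. All cells were kept in medium with 2i inhibitors on gelatin. The strain label changes with the genotype, from 129B6F1 in WT to 129B6F8 in the 6-gene knockout, with the last digit going up by 1 at each step, as in a column filled down by a spreadsheet. It is unknown whether the strains really differed, and taken as written the labels do not let strain and genotype be told apart. The labels do not say how the knockouts were made, whether each line is 1 clone, or whether the 3 libraries are from separate cultures. Every p-value below therefore refers only to the spread among libraries, which may be technical. The files do not pair the Ensembl IDs with gene symbols or positions. Roles of the 78 IDs, markers of embryonic stem cells or other cell types and the counts of the targeted genes are therefore not analysed here, and only 4 IDs are named.

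Library totals ran from 10148155 counts in WT replicate 2 to 28442061 counts in Pcl1-3 KO replicate 3. No pair of libraries of a genotype agreed within sampling noise, with chi-square values per degree of freedom of 6.25 to 67.8 over 24 pairs. The libraries numbered 3 stood apart in a measure that bears on the 78 IDs. Of 1190 WT-silent IDs with enough counts to be tested, the number at 1 CPM or more was highest in replicate 3 in each of the 7 knockouts. It was 106, 30 and 125 in Pcl1-3 KO replicates 1, 2 and 3, 43, 58 and 271 in Pcl1-3 + Epop KO, and 60, 35 and 143 in Jarid2 + Aebp2 KO. It was 119, 118 and 227 in Pcl1-3 + Jarid2 KO, 51, 56 and 184 in Pcl1-3 + Jarid2 + Aebp2 KO, 589, 647 and 727 in Suz12 KO, and 239, 294 and 334 in the 6-gene knockout. For the 5 knockouts that the rule did not use, levels of the 78 IDs and counts of called IDs are given with and without replicate 3, and what the number marks was not tested.

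All 78 IDs passed the filter on low counts, which they could do through the knockouts in which they were chosen to be high. In WT the median of their mean levels was 0.317 CPM and the highest 0.496 CPM. These levels rest on few reads: each ID had between 0 and 19 counts over the 3 WT libraries, with a median of 11, and 3 IDs had none. A total of 3 counts over the WT group, which a count of 0 allows, corresponds to 0.0864 CPM, for counting error only. In Suz12 KO the medians of the 3 libraries were 3.27, 3.98 and 4.42 CPM, and in the 6-gene knockout 1.62, 1.79 and 1.77 CPM. The 78 IDs together took 205, 265 and 343 reads in the WT libraries, 4381, 5711 and 7251 in Suz12 KO, and 2474, 2880 and 3139 in the 6-gene knockout. The rule asked for this difference, so it is the definition of the group. In RNA from whole cultures, a gene switched on in a few cells and a gene raised a little in all cells cannot be told apart.

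**Figure D1:**
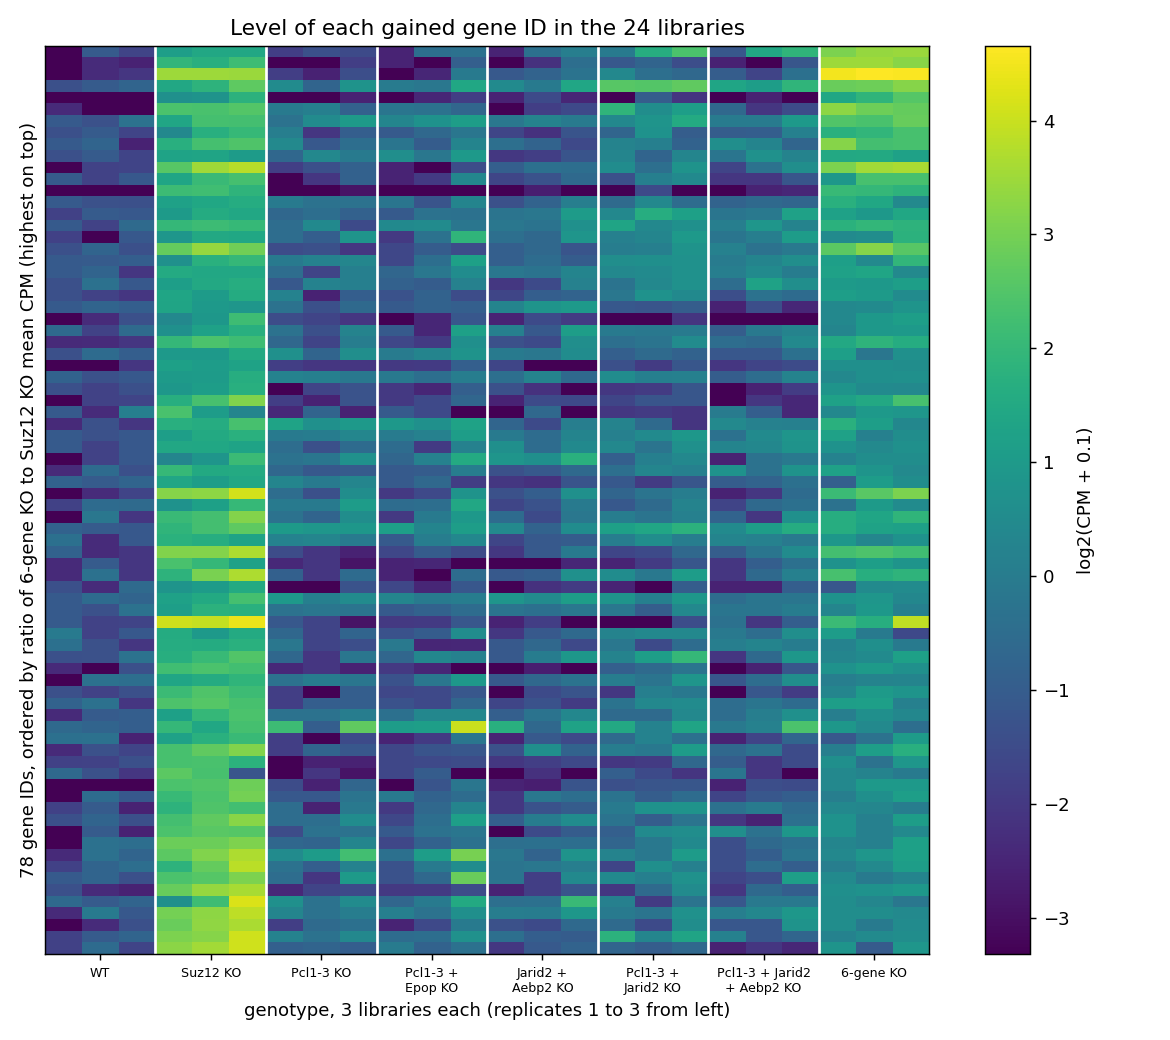
Level of each of the 78 gene IDs (rows, ordered by the ratio of the 6-gene knockout to Suz12 KO) in the 24 libraries (columns, replicates 1 to 3 of each genotype from left), as log2(CPM + 0.1) by colour. Suz12 KO is bright over nearly all rows and the 6-gene knockout brightest in the rows at the top, as the rule and the ordering require, while the 5 knockouts between them are dark in most rows and lighter in single rows and in libraries numbered 3.

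The values nearest the thresholds show that the group has no natural edge. Just inside, the highest means in WT were 0.4963 and 0.4916 CPM, the lowest in Suz12 KO 2.013 and 2.151 CPM and the lowest in the 6-gene knockout 1.004 and 1.007 CPM. Just outside, IDs that met the other 2 thresholds had means of 0.5 and 0.5057 CPM in WT, 1.991 and 1.975 CPM in Suz12 KO, and 0.9997 and 0.9997 CPM in the 6-gene knockout. With 2 CPM asked for in both knockouts 30 IDs were left, and with replicates 1 and 2 alone the rule gave 87 IDs, of which 65 were among the 78. Of 41873 IDs under 0.5 CPM in WT, 312 reached 2 CPM in Suz12 KO and 261 reached 1 CPM in the 6-gene knockout. The 78 shared IDs are 25% of the first list and 29.9% of the second.

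Between the 2 knockouts that chose them, the 78 IDs differed widely in level. The mean was higher in Suz12 KO for 66 IDs and higher in the 6-gene knockout for 12. The ratio of the 6-gene knockout to Suz12 KO had a median of 0.519, with quartiles of 0.319 and 0.736 and a range from 0.0995 to 3.93. It lay within 1.5-fold of equality for 23 IDs and under 0.25 for 13. The 3 6-gene libraries lay above all 3 Suz12 KO libraries for 6 IDs and below all of them for 47, where 16.8% and 33.9% of all 14650 tested IDs did so. The thresholds differ between the knockouts, so these counts are not a measure of one against the other.

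**Figure D2:**
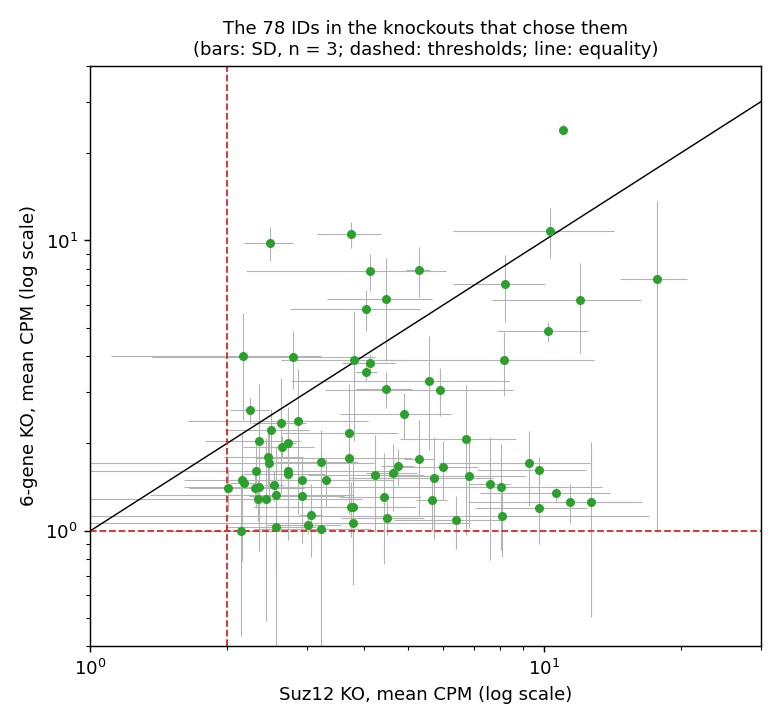
Mean CPM of each of the 78 IDs in Suz12 KO (horizontal, log scale) and in the 6-gene knockout (vertical, log scale); grey bars are the SD over 3 libraries, cut off at the edge of the plot, dashed lines the thresholds of 2 and 1 CPM, and the solid line equality. Most points lie below the line, with 12 above it, and the point highest on the vertical axis is at 24.1 CPM in the 6-gene knockout.

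Single IDs show the range, ranked here by reads and not by transcripts per length. The ID with the most reads in the 6-gene knockout had 23, 25.1 and 24.2 CPM there and 11.1, 11.1 and 10.8 CPM in Suz12 KO. Its WT libraries held 0, 0.0985 and 0.142 CPM. Its means in the 5 other knockouts were 0.176 to 0.806 CPM, so it was high in the 2 choosing knockouts alone. The ID with the most reads in Suz12 KO had 16.6, 15.5 and 21.2 CPM there and 4.28, 3.11 and 14.7 CPM in the 6-gene knockout, where replicate 3 lay far above replicates 1 and 2. Its means in the 5 other knockouts were 0.0851 to 0.417 CPM.

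The ID with the highest ratio had 2.13, 2.67 and 2.66 CPM in Suz12 KO against 8.29, 10.3 and 10.8 CPM in the 6-gene knockout. It was also high in part of the libraries of 2 other genotypes, with 0.862, 3.04 and 5.14 CPM in Pcl1-3 + Jarid2 KO and 0.346, 2.65 and 3.62 CPM in Pcl1-3 + Jarid2 + Aebp2 KO. Its spread there was wide, with means of 3.01 ± 2.14 and 2.20 ± 1.68 CPM (SD, n = 3). The ID with the lowest ratio had 9.53, 11.7 and 16.8 CPM in Suz12 KO and 1.66, 0.389 and 1.73 CPM in the 6-gene knockout, and replicate 2 of the latter lay under the 1 CPM threshold.

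The 5 knockouts that the rule did not use carried most of the 78 IDs at levels between WT and the 6-gene knockout. The median of the mean levels was 0.531 CPM in Pcl1-3 KO, 0.611 in Pcl1-3 + Epop KO, 0.488 in Jarid2 + Aebp2 KO, 0.862 in Pcl1-3 + Jarid2 KO and 0.645 in Pcl1-3 + Jarid2 + Aebp2 KO. In the same order, 63, 62, 61, 69 and 66 of the 78 IDs had a higher mean than in WT. WT levels were chosen to be low, so a higher mean elsewhere is partly built in, and no test against WT was made. From replicates 1 and 2 alone, the medians were 0.48, 0.426, 0.383, 0.831 and 0.469 CPM, and 58, 55, 53, 67 and 59 IDs had a higher mean than in WT. Pcl1-3 + Jarid2 KO had the highest of the 5 medians within each replicate number. The order of the other 4 was not shared by the replicates: the lowest median was that of Jarid2 + Aebp2 KO in replicate 1 (0.293 against 0.301 CPM for the next) and replicate 3 (0.639 against 0.65 CPM), and that of Pcl1-3 KO in replicate 2 (0.356 against 0.425 CPM).

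A mean of 1 CPM or more, which the rule asked of the 6-gene knockout, was reached by 15 IDs in Pcl1-3 KO, 19 in Pcl1-3 + Epop KO, 14 in Jarid2 + Aebp2 KO, 32 in Pcl1-3 + Jarid2 KO and 21 in Pcl1-3 + Jarid2 + Aebp2 KO. Without replicate 3 these counts were 11, 8, 6, 25 and 17, so those of Pcl1-3 + Epop KO and Jarid2 + Aebp2 KO fell by more than 1.5 times. Of the 78, 46 IDs reached it in at least 1 of the 5 and 3 in all 5, or 39 and 0 without replicate 3. The other 32 stayed under 1 CPM in all 5 knockouts, and 14 of these stayed under 0.5 CPM in all 5, or 39 and 15 without replicate 3. At least 50% of the 6-gene level was reached by 21, 26, 20, 36 and 24 IDs, in the order of genotypes above, and by 20, 18, 14, 30 and 17 without replicate 3. Between 2 and 8 IDs of each knockout were at or above their 6-gene level, or 0 to 7 without replicate 3.

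Across libraries the number of the 78 IDs at 1 CPM or more moved with the replicate number. It was 15, 9 and 23 in Pcl1-3 KO replicates 1, 2 and 3, 7, 11 and 35 in Pcl1-3 + Epop KO, and 8, 6 and 25 in Jarid2 + Aebp2 KO. It was 26, 26 and 44 in Pcl1-3 + Jarid2 KO and 10, 16 and 31 in Pcl1-3 + Jarid2 + Aebp2 KO. Replicate 3 was the highest library of each of these 5 genotypes, and replicates 1 and 2 of Pcl1-3 + Jarid2 KO were above every replicate 1 and 2 of the other 4. In the 6-gene knockout the 3 libraries held 69, 71 and 72 of the 78, in Suz12 KO 78, 78 and 77, and in WT 0.

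**Figure D3:**
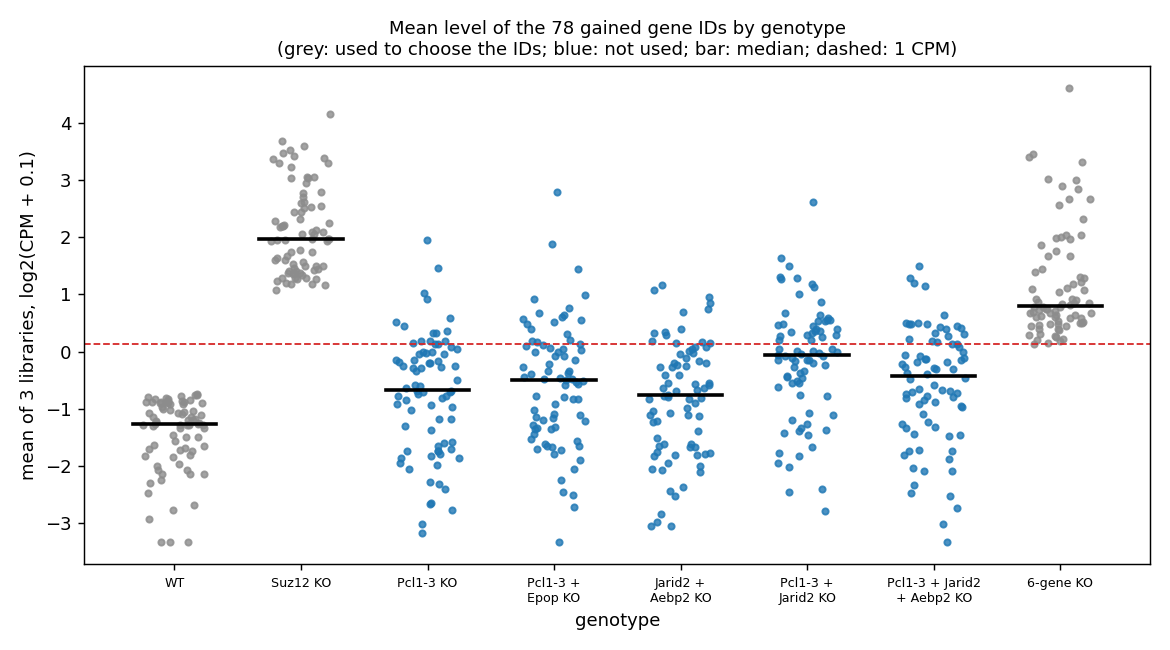
Mean level of each of the 78 IDs (points, mean of 3 libraries) by genotype as log2(CPM + 0.1), with the median as a bar and 1 CPM as the dashed line; grey genotypes chose the IDs. Among the blue genotypes, which did not, Pcl1-3 + Jarid2 KO has the highest median, at 0.862 CPM, and each has IDs on both sides of 1 CPM.

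The 2 neighbouring groups of WT-silent IDs had lower medians in each of the same 5 knockouts over all 3 libraries. The 234 IDs that reached 2 CPM in Suz12 KO but not 1 CPM in the 6-gene knockout had medians of 0.205 to 0.295 CPM, with 2 to 11 IDs at 1 CPM or more. The 183 IDs that reached 1 CPM in the 6-gene knockout but not 2 CPM in Suz12 KO had medians of 0.374 to 0.766 CPM, with 18 to 57 IDs at 1 CPM or more. From replicates 1 and 2 alone the medians were 0.174 to 0.277 CPM in the first group and 0.31 to 0.657 CPM in the second, and in Pcl1-3 + Jarid2 + Aebp2 KO the second group, at 0.487 CPM, was then above the 0.469 CPM of the 78. In both groups, as in the 78, the highest median of the 5 was in Pcl1-3 + Jarid2 KO, with and without replicate 3. The groups were cut by level in a genotype related to these 5, and the difference between them was not tested.

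Some of the 78 IDs stood apart from the rest in the 5 knockouts. The ID with the highest mean over them had 2.03, 2.14 and 16.2 CPM in Pcl1-3 + Epop KO and 4.34, 0.427 and 6.5 CPM in Pcl1-3 KO. Its level in the 6-gene knockout was lower, at 1.75, 1.25 and 0.631 CPM, so it was above the 6-gene libraries in most but not all libraries of the 2 smaller knockouts. In Pcl1-3 + Epop KO its mean of 6.80 ± 8.17 CPM (SD, n = 3) rested on replicate 3. The ID with the lowest mean over the 5 had no count in any WT or Pcl1-3 + Epop KO library and at most 0.246 CPM in any library of the 5. It had 4.34, 4.56 and 3.53 CPM in Suz12 KO and 4.02, 3.89 and 3.47 CPM in the 6-gene knockout. Against 3 counts over the WT group these are at least 48-fold and 43.9-fold higher.

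Comparisons among the 5 knockouts ask what the loss of a further subunit did to the 78 IDs, in libraries that did not choose them. The comparisons were made with edgeR's quasi-likelihood test over 14650 IDs. An ID was called when its Benjamini-Hochberg adjusted p was under 0.05. The filter on low counts used all 24 libraries, among them those that chose the IDs. When only the 2 genotypes of a comparison were fitted, 27 to 45 of the 78 passed it, so shares of the 78 rest partly on that choice. Several comparisons share a genotype and are not independent of each other. For alternative settings other than the replicate block with all libraries, the share of all tested IDs that was called was not worked out. In all, 17 of the 78 IDs (21.8%) were called in at least 1 of the 5 comparisons and 61 in none. Of all tested IDs, 18.2% were called at least once, a share near that of the 78. Of the 233 tested WT-silent IDs gained in Suz12 KO only, 21 (9.01%) were called at least once. The differences between these shares were not tested.

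Where Jarid2 was lost besides Pcl1-3, the test called more of the 78 IDs higher than lower. In Pcl1-3 + Jarid2 KO against Pcl1-3 KO, 8 IDs rose and 2 fell. Over all tested IDs, 3.71% rose and 2.56% fell, so the share that rose among the 78, 10.3%, was above the background and the share that fell, 2.56%, was at it; the difference between these shares was not tested. The 8 that rose did so by 1.57 to 3.58 on the log2 scale. The median log2 fold change of the 78 was 0.48, against 0.00 over all tested IDs and 0.23 over the WT-silent tested IDs, and 61 of the 78 were above 0. Within replicate numbers 1, 2 and 3, 52, 58 and 56 IDs were higher in Pcl1-3 + Jarid2 KO. With the replicate number as a block, 17 IDs rose and 2 fell, beside 7.37% and 5.94% of all tested IDs. The count of 10 called IDs depended on single libraries: it was 4 and 3 without replicate 2 or 3 of Pcl1-3 + Jarid2 KO, 5 and 3 without replicate 1 or 3 of Pcl1-3 KO, and 2 with replicates 1 and 2 alone, or 10 with these and the block.

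ENSMUSG00000033174.17 had the lowest adjusted p of the 8 IDs that rose. It had 0.265, 0.285 and 0.141 CPM (3, 4 and 4 reads) in Pcl1-3 KO and 0.933, 0.985 and 1.62 CPM in Pcl1-3 + Jarid2 KO. The 2 groups did not overlap, and the log2 fold change was 2.43 with a standard error of 0.39 (edgeR adjusted p = 0.000402). It passed in 12 of 13 alternative settings and not with replicates 1 and 2 alone, where edgeR gave an adjusted p of 0.0861. In Pcl1-3 + Jarid2 + Aebp2 KO it had 1.04, 0.696 and 0.841 CPM, which overlapped those of Pcl1-3 + Jarid2 KO. Its levels were 6.68, 10.3 and 7.58 CPM in Suz12 KO and 6.2, 9.19 and 5.83 CPM in the 6-gene knockout, above every library of the other genotypes.

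ENSMUSG00000018263.11 was called in 3 of the 5 comparisons. It had 0.0948, 0 and 0 CPM in WT, 0.885, 0.997 and 0.457 CPM in Pcl1-3 KO and 3.66, 1.4 and 2.1 CPM in Pcl1-3 + Jarid2 KO, without overlap. Its log2 fold change between these 2 knockouts was 1.67 with a standard error of 0.43 (edgeR adjusted p = 0.0218). This call held in 6 of 13 alternatives, with edgeR or DESeq2 adjusted p from 0.00167 to 0.182, and the settings that lost it include leaving out replicate 1 or 3 of either genotype.

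Adding the loss of Epop to that of Pcl1-3 gave no called ID among the 78. In Pcl1-3 + Epop KO against Pcl1-3 KO, edgeR called 0 of 78 higher and 0 lower, with or without the replicate block, and DESeq2 0 as well. Over all tested IDs edgeR called 0.00683% higher and 0% lower. At an unadjusted edgeR p under 0.05 there were 2 of the 78, of which 1 was higher, or 2.56% beside 1.43% of all tested IDs, and the lowest unadjusted p was 0.00424. The median log2 fold change was 0.13, against 0.01 over all tested IDs. It was 0.11 over the WT-silent tested IDs and 0.02 over the IDs gained in Suz12 KO only. A positive median was therefore not particular to the 78. The direction of the 78 was not shared by the replicate numbers: 25, 39 and 62 of them were higher in Pcl1-3 + Epop KO within replicates 1, 2 and 3. A comparison that calls almost no ID in the whole table cannot show that the 78 are alike in the 2 genotypes.

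Adding the loss of Aebp2 to those of Pcl1-3 and Jarid2 went with lower levels, of which few passed the test. In Pcl1-3 + Jarid2 + Aebp2 KO against Pcl1-3 + Jarid2 KO, no ID rose and 1 fell, beside 0.341% and 0.56% of all tested IDs. The median log2 fold change of the 78 was -0.49, with 58 IDs below 0. It was -0.29 over the WT-silent tested IDs and -0.45 over the IDs gained in Suz12 KO only, so a negative median was not particular to the 78, and it was 0.00 over all tested IDs. Within replicate numbers 1, 2 and 3, 58, 53 and 50 of the 78 were lower in Pcl1-3 + Jarid2 + Aebp2 KO. With the replicate block 4 IDs fell and 0 rose, beside 1.82% and 1.13% of all tested IDs. Without replicate 2 of Pcl1-3 + Jarid2 KO 2 IDs were called, with replicates 1 and 2 alone 0, and with these and the block 3.

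The ID that fell was ENSMUSG00000018263.11. From 3.66, 1.4 and 2.1 CPM in Pcl1-3 + Jarid2 KO it went to 0.554, 0.139 and 0.252 CPM in Pcl1-3 + Jarid2 + Aebp2 KO. The latter rest on 8, 2 and 3 reads. The log2 fold change was -2.85 with a standard error of 0.50 (edgeR adjusted p = 0.00421). The libraries did not overlap. The call held in 11 of 13 alternatives and was lost with replicates 1 and 2 alone (edgeR adjusted p = 0.0582) and with the 2 genotypes fitted alone (edgeR adjusted p = 0.0612). In the 6-gene knockout, which lacks Epop as well, it had 9.69, 7.4 and 6.7 CPM, above the 5.12, 5.09 and 5.65 CPM of Suz12 KO.

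The step from Pcl1-3 + Jarid2 + Aebp2 KO to the 6-gene knockout, which adds the loss of Epop, used libraries of the rule and is described only. The mean was higher in the 6-gene knockout for 76 of the 78 IDs, with a median ratio of 3.44. All 3 6-gene libraries lay above all 3 of Pcl1-3 + Jarid2 + Aebp2 KO for 54 IDs and below for 0, beside 12.1% and 14.4% of all tested IDs. Because a level of 1 CPM was asked of the 6-gene knockout, this difference is partly fixed by the choice.

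**Figure D4:**
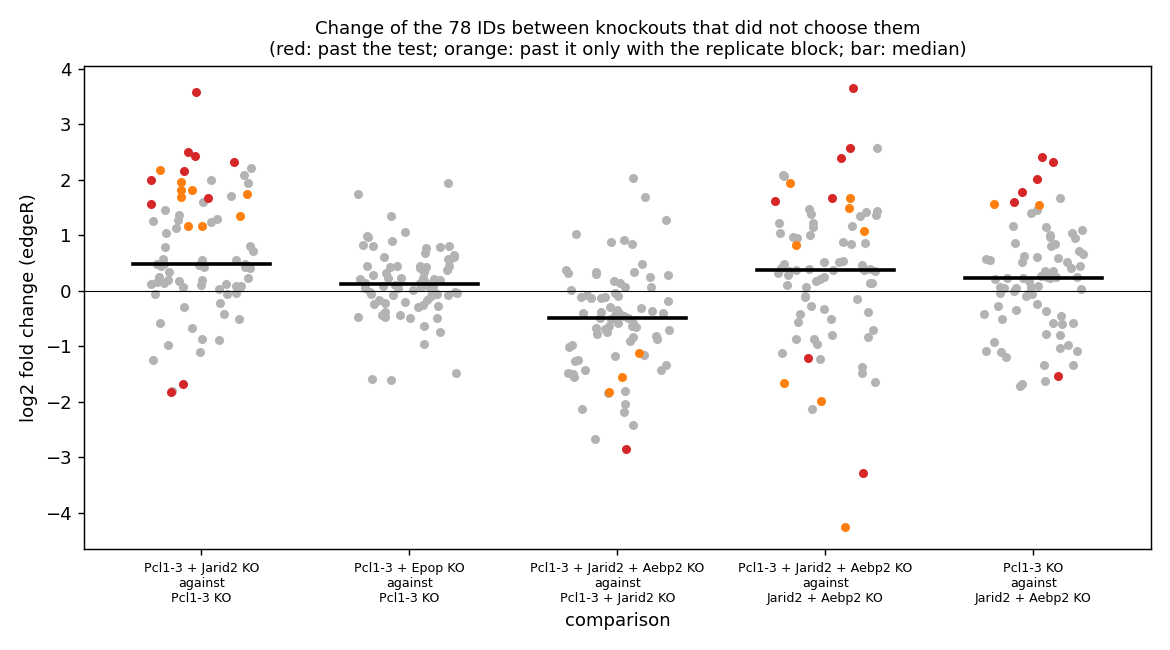
The log2 fold change by edgeR of each of the 78 IDs (points) in the 5 comparisons among knockouts that did not choose them, with the median as a bar; red points passed an adjusted p of 0.05 and orange points passed it only with the replicate block. The medians are 0.48, 0.13, -0.49, 0.38 and 0.23 from left to right, and the comparison that adds Epop loss has no coloured point.

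With Pcl1-3 lost on top of Jarid2 and Aebp2, no larger share of the 78 IDs was called than of all tested IDs. In Pcl1-3 + Jarid2 + Aebp2 KO against Jarid2 + Aebp2 KO, 5 IDs rose and 2 fell. Those are 6.41% and 2.56% of the 78. Of all tested IDs 6.87% rose and 6.83% fell, so the share that rose was near that of all tested IDs. Of the IDs gained in Suz12 KO only, 1.72% rose and 2.15% fell, and the differences were not tested. The median log2 fold change of the 78 was 0.38, against -0.01 over all tested IDs and 0.06 over the WT-silent tested IDs, with 52 of the 78 above 0. Within replicate numbers 1, 2 and 3, 47, 48 and 48 IDs were higher in the larger knockout. With the replicate block 10 rose and 5 fell, beside 11.8% and 12% of all tested IDs. Leaving out single libraries gave 5 to 7 called IDs, and replicates 1 and 2 alone gave 5, or 11 with the block.

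ENSMUSG00000048450.10 fell in that comparison by 3.28 on the log2 scale, with a standard error of 0.43 (edgeR adjusted p = 1.73e-05). It had 1.1, 1.64 and 1.84 CPM in Jarid2 + Aebp2 KO and 0.0692, 0.278 and 0.0841 CPM in Pcl1-3 + Jarid2 + Aebp2 KO. The latter rest on 1, 4 and 1 reads, so the size of the fall is uncertain. Its Jarid2 + Aebp2 KO level was close to the 1.22, 1.32 and 1.66 CPM of the 6-gene knockout. In Pcl1-3 KO, Pcl1-3 + Epop KO and Pcl1-3 + Jarid2 KO its means were 0.518, 0.427 and 0.364 CPM, near the 0.433 CPM of WT. Among the 5 knockouts not used for the choice, its libraries of Jarid2 + Aebp2 KO were above all others.

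ENSMUSG00000052271.7 had the opposite order. It had 0.146, 0.182 and 0.319 CPM in Jarid2 + Aebp2 KO, on 2, 3 and 4 reads. Of these libraries 2 lay below the 0.214 to 0.394 CPM of WT and 1 within it. In Pcl1-3 + Jarid2 + Aebp2 KO it had 0.762, 1.53 and 1.09 CPM. The rise of 2.39 on the log2 scale had a standard error of 0.47 (edgeR adjusted p = 0.00138), and the groups did not overlap. Its means in Pcl1-3 KO, Pcl1-3 + Epop KO and Pcl1-3 + Jarid2 KO were 0.874, 1.37 and 0.93 CPM, so all 4 knockouts without Pcl1-3 among the 5 had higher means than Jarid2 + Aebp2 KO. Both this call and that of ENSMUSG00000048450.10 held in 13 of 13 alternatives.

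**Figure D5:**
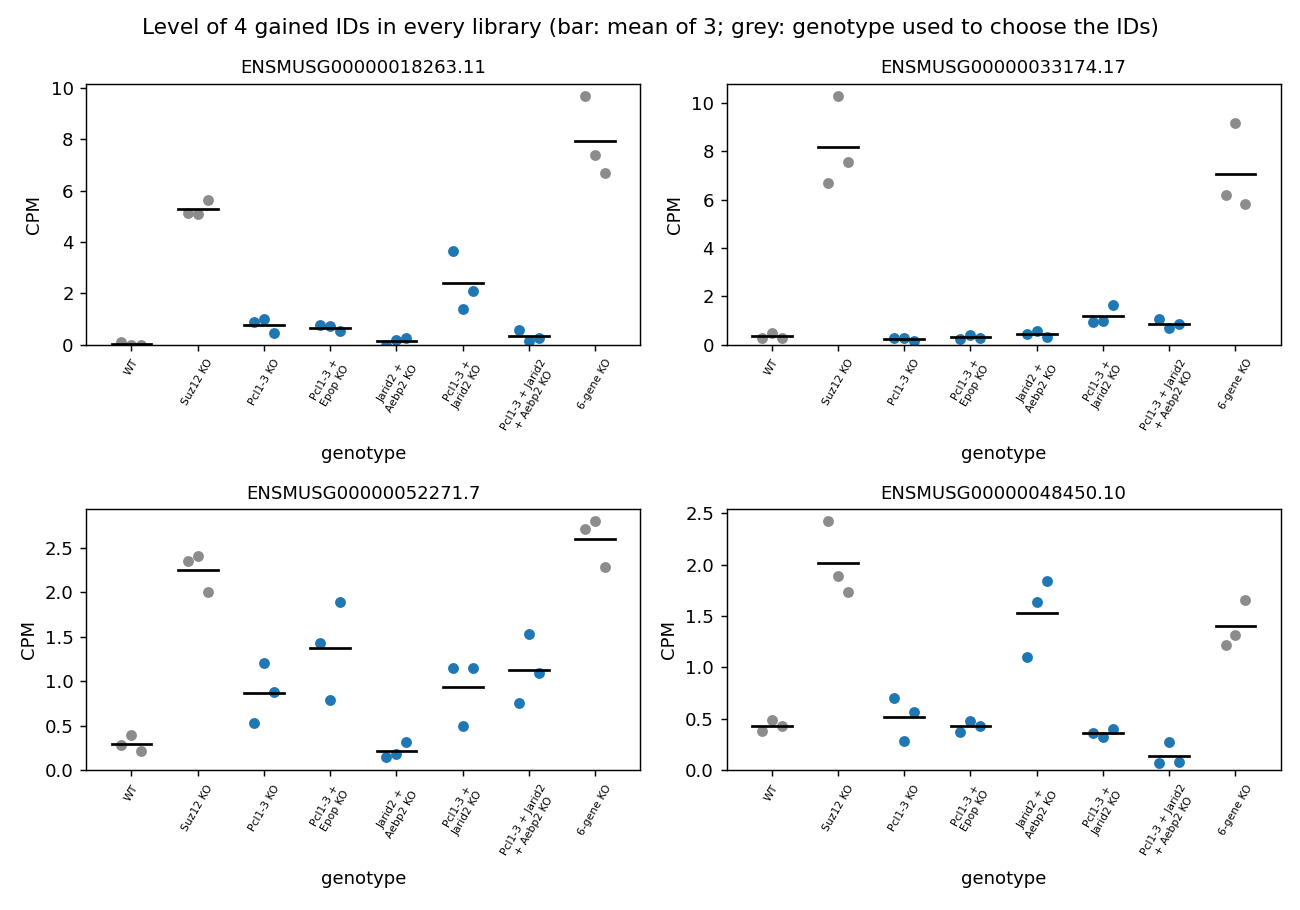
CPM of the 4 named IDs in every library (points; replicates 1 to 3 from left within a genotype) with the mean of 3 as a bar; grey genotypes chose the IDs, and each panel has its own axis from 0. ENSMUSG00000048450.10 is high in Jarid2 + Aebp2 KO among the blue genotypes, at 1.1 to 1.84 CPM, where ENSMUSG00000052271.7 is low, at 0.146 to 0.319 CPM.

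The last comparison set the loss of the Polycomb-like proteins against that of JARID2 and AEBP2, the non-core subunits of the 2 forms of the complex. In Pcl1-3 KO against Jarid2 + Aebp2 KO, 5 of the 78 IDs were higher and 1 lower, beside 1.97% and 2.16% of all tested IDs. The share of the 78 that was higher, 6.41%, was above that of all tested IDs. The share that was lower, 1.28%, is 1 ID, too few to set against the background. Of the IDs gained in Suz12 KO only, 1.72% were higher and 0.858% lower. The differences were not tested. The median log2 fold change was 0.23, against 0.00 over all tested IDs, with 49 of the 78 above 0. It was 0.05 over the WT-silent tested IDs and 0.198 over the IDs gained in Suz12 KO only. A positive median was therefore not particular to the 78. The direction of the 78 was not shared by the replicate numbers, in which 50, 32 and 41 IDs were higher in Pcl1-3 KO. The 6 called IDs became 1 to 3 when any 1 of the 6 libraries was left out: 3, 1 and 3 without Pcl1-3 KO replicate 1, 2 or 3, and 2, 1 and 3 without Jarid2 + Aebp2 KO replicate 1, 2 or 3. With replicates 1 and 2 alone 1 ID was called, or 3 with the block. When only these 2 genotypes were fitted, 29 of the 78 passed the filter on low counts and 0 were called. With all libraries and the replicate block 7 were higher and 1 lower, beside 4.41% and 4.85% of all tested IDs.

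Of the named IDs, 3 were among these 6. ENSMUSG00000018263.11 was higher in Pcl1-3 KO, with 0.885, 0.997 and 0.457 CPM against 0, 0.182 and 0.239 CPM in Jarid2 + Aebp2 KO. The latter rest on 0, 3 and 3 reads. The log2 fold change was 2.33 with a standard error of 0.63 (edgeR adjusted p = 0.0392). ENSMUSG00000052271.7 was higher by 2.02 with a standard error of 0.47 (edgeR adjusted p = 0.016), and its libraries did not overlap either. ENSMUSG00000048450.10 was lower, with a log2 fold change of -1.54 and a standard error of 0.34 (edgeR adjusted p = 0.0103). With the 2 genotypes fitted alone, ENSMUSG00000018263.11 and ENSMUSG00000052271.7 did not pass the filter on low counts and could not be called, which leaves 12 alternatives for these and 13 for ENSMUSG00000048450.10. Each of the 3 calls was lost in 5 or 6 of them, with adjusted p up to 0.133, 0.103 and 0.149 for the IDs in this order; without Pcl1-3 KO replicate 2 all 3 were lost, at edgeR adjusted p of 0.13, 0.0698 and 0.0595. The direction was kept in every alternative run.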

How the data were processed

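The authors deposited raw counts of reads for each Ensembl ID, 1 file per library. STAR, HTSeq and the mm10 build are named for RNA per the submitters' processing notes, without versions. Per the labels' protocols, total RNA went into a TruSeq library kit. The sources used here do not give strandedness, so overlapping, antisense and near-identical genes are uncertain. Peak lists were not used here, since IDs could not be placed on the genome.

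Computed here were CPM without scaling, and edgeR 4.0.16 quasi-likelihood tests in R 4.3.3 (TMM, filterByExpr, all 24 libraries in 1 fit, Benjamini-Hochberg adjustment over 14650 IDs). The test was also run on simulated data, whose settings and outcome are not given here. That run does not vouch for calls on IDs with few reads or for libraries that differ as widely as these replicates. Standard errors are approximate: each is the absolute log2 fold change divided by the square root of the test's F value. Alternatives were DESeq2 1.42.0, RLE scaling, no filter, the 2 genotypes alone, a replicate block and left-out libraries. Labels do not say what replicate numbers mark. Deviations from genotype means correlated within each of 15 same-numbered pairs (r = 0.2 to 0.71, threshold 0.1), so the numbers were taken as pairing the libraries in these comparisons, from the data. Over all 84 same-numbered pairs among the 8 genotypes, which the block spans, 9 were at or under the threshold, the lowest at 0.0315. The main fit had no replicate block and so made no use of this pairing. Counts with the block are given beside its counts in each comparison.

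The members and lists were chosen with earlier results of these data known. The 4 named IDs are those with the lowest adjusted p, 2 that rose and 2 that fell, over the 5 comparisons. Planned gene lists, marker and targeted-gene checks and neighbouring positions were not run for want of gene names.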

Additional observations from a re-analysis of the deposited data

How the results depend on the processing

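None of the log2 fold changes of the named IDs that were called changed sign in the alternatives run. Numbers of called IDs among the 78 were less stable. In Pcl1-3 + Jarid2 KO against Pcl1-3 KO, 10 became 19 without a filter on low counts, 19 with the replicate block, 5 with the 2 genotypes fitted alone (45 of the 78 tested) and 2 with replicates 1 and 2 alone, and ranged from 3 to 11 over left-out libraries. In Pcl1-3 + Jarid2 + Aebp2 KO against Pcl1-3 + Jarid2 KO, 1 became 5 without a filter, 4 with the replicate block, 2 with DESeq2, 0 with the 2 genotypes alone (44 tested), 0 with replicates 1 and 2 alone and 3 with these and the block, and ranged from 1 to 2 over left-out libraries. In Pcl1-3 + Jarid2 + Aebp2 KO against Jarid2 + Aebp2 KO, 7 became 12 without a filter, 15 with the replicate block, 11 with DESeq2, 3 with the 2 genotypes alone (31 tested) and 11 with replicates 1 and 2 and the block, and ranged from 5 to 7. In Pcl1-3 KO against Jarid2 + Aebp2 KO, 6 became 0 with the 2 genotypes alone (29 tested), 1 with replicates 1 and 2 alone and 3 with these and the block, and ranged from 1 to 3. Fits of 2 genotypes test fewer IDs and fewer libraries, and the cause of the other shifts was not tested. Shares of all tested IDs were worked out only for the main fit and the replicate block with all libraries. It is therefore unknown whether the other shifts are particular to the 78 or run through the whole table. The replicate block moved no other count by over 1.5 times. Pcl1-3 + Epop KO against Pcl1-3 KO kept 0 called IDs in every alternative, but with the 2 genotypes alone only 27 of the 78 were tested. The rule gave 79 IDs with TMM-scaled CPM, of which 74 were among the 78, 30 with 2 CPM in both knockouts, and 71 to 97 over left-out libraries. Using replicates 1 and 2 alone was chosen after seeing the data. Other peak distances, peak widths and overlaps were not run. At these depths 1 CPM rests on few reads, which limits what can be called near WT levels.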
